A study of Rattus norvegicus with 70 samples.

Results

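Divergent promoters are stretches from which a minus-strand gene and a plus-strand gene are transcribed away from each other, and their methylation signal around both starts is described here in rat liver. A region was kept where it belonged to an autosomal pair of a minus and a plus region whose minus start lay 0 to 1000 bp below the plus start. The rule kept 1045 of 17174 regions, in 536 pairs at 504 loci, and these regions carry 1025 gene symbols. The other 15284 autosomal regions are the comparison, and 845 regions outside the named autosomes were left out. The rule used positions only and no measured value.

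Vertebrate divergent promoters typically lie in CpG islands, where the 2 genes share one nucleosome-poor stretch and often lack a TATA box. CpG island promoters of genes used in most cells are kept free of DNA methylation, while gene bodies outside islands are commonly methylated. Genes of DNA repair, mitochondria and translation are known to be frequent in such pairs in mammals. Methyl-binding protein capture (MBD sequencing) pulls down DNA in proportion to its methylated CpGs, so DNA with few CpGs gives little signal whether methylated or not.

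The study followed DNA methylation in the livers of Crj:CD(SD)IGS rats, an outbred strain, through initiation, 2 weeks of withdrawal, promotion with phenobarbital (PB) and partial hepatectomy. The initiated groups were dosed with diethylnitrosamine (DEN, 3 or 30 mg/kg), thioacetamide (45 mg/kg), methapyrilene (100 mg/kg) or acetaminophen (1000 mg/kg), each followed by 500 ppm PB in drinking water. DEN alkylates DNA, and the other 3 agents are known to injure the liver. The PB control was given the vehicle, 0.5% methylcellulose, before PB, and the water control the same vehicle before untreated drinking water. Treatment ran for 1 or 2 weeks, and for 1 week with DEN 30 mg/kg because of marked weight loss. Each of the 7 conditions had 5 libraries at terminal euthanasia (after 6 weeks of PB, called terminal below) and 5 at partial hepatectomy (after 1 week of PB, called hepatectomy below). All animals underwent partial hepatectomy, so the terminal livers had regrown. The labels speak of 5 rat livers per group, ages are not used here, and whole liver mixes cell types, so that a change in the share of methylated cells and a change in methylation per cell cannot be told apart.

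The value of a region is the authors' scaled read signal. The scaling totals of 10 libraries recur in other groups, as given below, and whether all libraries lie on one scale was not tested. Each region runs about 5.6 kb, from 4.5 kb upstream to about 1.1 kb downstream of a start. In divergent pairs both regions therefore cover the stretch around both starts. In the median pair, with starts 264 bp apart, the regions shared 2514 bp and each had an outer piece of 3111 bp. The minus region's outer piece lies downstream of the plus start, on the plus gene's side, and the plus region's outer piece lies on the minus gene's side. The difference between the 2 regions of a pair is thus the difference between the 2 outer pieces, and the shared piece can hold no more signal than the lower region. Members of a pair are not independent, and 22 regions belong to more than 1 pair.

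**Figure D1:**
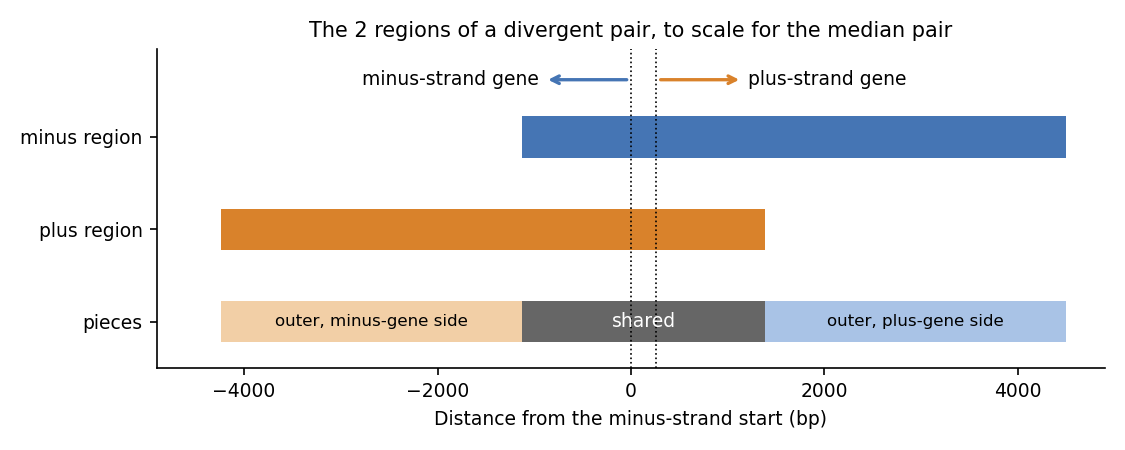
The minus region (blue) and the plus region (orange) of a divergent pair, drawn to scale for the median pair with starts 264 bp apart, against distance from the minus-strand start in bp; dotted lines mark the 2 starts. Both regions contain the 2514 bp shared piece (grey), and each outer piece of 3111 bp belongs to the region of the opposite gene.

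The promoters of a few pairs show what the members look like in sequence. They are RefSeq sequences of build GRCr8, from 250 bases before to 50 bases after a start, printed 5′ to 3′ on the gene's own strand with every CpG in capitals. The Hspe1 and Surf2 windows were chosen as textbook pairs of mitochondrial proteins (Hspd1/Hspe1) and of a cytochrome oxidase assembly factor (Surf1/Surf2), the Son window for its strong one-sided signal, the Smc6 window as CpG-dense with hardly any signal, the Pfdn6 window as a member of the protein-coding pair with the highest mean signal, and the RGD1559600 window as CpG-poor with hardly any signal. Their coordinates are chr9:64084077-64084376 (plus strand) for Hspe1, chr3:30642505-30642804 (plus) for Surf2, chr11:44377726-44378025 (plus) for Son, chr6:39697595-39697894 (plus) for Smc6, chr20:4947594-4947893 (plus) for Pfdn6 and chr1:183416880-183417179 (minus) for RGD1559600.
Hspe1: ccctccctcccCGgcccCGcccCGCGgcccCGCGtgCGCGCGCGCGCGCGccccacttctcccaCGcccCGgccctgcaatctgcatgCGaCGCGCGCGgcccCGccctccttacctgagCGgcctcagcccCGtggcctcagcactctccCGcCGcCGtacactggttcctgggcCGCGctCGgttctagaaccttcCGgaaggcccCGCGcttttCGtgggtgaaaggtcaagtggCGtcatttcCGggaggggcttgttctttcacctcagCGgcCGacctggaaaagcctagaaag
Surf2: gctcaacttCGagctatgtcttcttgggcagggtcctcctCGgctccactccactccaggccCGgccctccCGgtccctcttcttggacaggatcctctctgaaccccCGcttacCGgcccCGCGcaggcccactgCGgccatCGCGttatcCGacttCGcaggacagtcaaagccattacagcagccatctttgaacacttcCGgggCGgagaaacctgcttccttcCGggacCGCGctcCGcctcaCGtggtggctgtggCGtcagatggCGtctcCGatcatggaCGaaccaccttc
Son: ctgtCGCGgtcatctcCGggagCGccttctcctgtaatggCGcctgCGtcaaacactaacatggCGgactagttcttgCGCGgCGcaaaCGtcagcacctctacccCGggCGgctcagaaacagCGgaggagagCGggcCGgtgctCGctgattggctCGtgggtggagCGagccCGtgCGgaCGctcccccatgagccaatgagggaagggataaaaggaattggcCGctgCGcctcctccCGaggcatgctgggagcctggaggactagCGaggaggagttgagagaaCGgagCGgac
Smc6: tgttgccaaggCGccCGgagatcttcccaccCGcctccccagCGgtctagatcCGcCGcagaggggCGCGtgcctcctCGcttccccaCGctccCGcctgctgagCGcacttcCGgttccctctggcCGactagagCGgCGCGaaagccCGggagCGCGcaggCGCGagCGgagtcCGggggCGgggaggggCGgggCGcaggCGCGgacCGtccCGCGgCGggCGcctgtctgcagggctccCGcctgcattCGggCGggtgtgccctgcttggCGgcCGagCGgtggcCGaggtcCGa
Pfdn6: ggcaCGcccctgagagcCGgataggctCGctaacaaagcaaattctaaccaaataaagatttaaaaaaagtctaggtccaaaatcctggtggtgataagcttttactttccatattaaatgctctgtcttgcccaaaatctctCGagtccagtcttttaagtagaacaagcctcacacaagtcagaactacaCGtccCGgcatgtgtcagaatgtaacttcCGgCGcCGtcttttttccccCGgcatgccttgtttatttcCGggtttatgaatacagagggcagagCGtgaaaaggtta
RGD1559600: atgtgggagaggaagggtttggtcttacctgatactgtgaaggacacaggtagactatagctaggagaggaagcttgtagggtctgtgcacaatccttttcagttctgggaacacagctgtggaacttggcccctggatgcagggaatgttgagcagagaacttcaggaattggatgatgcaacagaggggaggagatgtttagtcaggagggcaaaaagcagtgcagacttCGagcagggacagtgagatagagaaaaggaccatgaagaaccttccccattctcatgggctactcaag

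Within 300 bases, Smc6 held 42 CpGs, Hspe1 37, Son 28, Surf2 24, Pfdn6 12 and RGD1559600 1. The Surf1 start lay 45 bp upstream of the Surf2 start, inside the Surf2 window, whereas the Hspd1 start lay 290 bp upstream of Hspe1 and just outside its window. The ETS-type motif CCGGAAG, on either strand, was found in the Hspe1, Surf2, Smc6 and Pfdn6 windows, 53 bases upstream of the start in Hspe1 and 33 bases upstream in Pfdn6. CCAAT on either strand was found in the Son window 3 times.

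Sequence features set the divergent promoters apart as a group. RefSeq promoters were matched for 864 of the 1045 divergent regions (82.7%) and for 11857 of the 15284 other autosomal regions (77.6%). The median divergent promoter held 23 CpGs in 300 bases at a GC content of 61.7%, against 15 CpGs and 57.7% in the other regions. The ratio of CpGs observed to those expected from base composition had a median of 0.859 in divergent promoters and 0.626 in the others. It was under 0.4 in 2.66% of divergent promoters, against 34.7% of the others. The TATA-type letters TATAAA, on either strand anywhere in the window, occurred in 3.47% of divergent promoters, 12.6% of other promoters and 14.3% of all 27457 promoters in the table. CCGGAAG occurred in 31.7%, 11.8% and 9.22% of the same 3 sets, GGGCGG in 67.5%, 48.5% and 34.9%, and CCAAT in 40.97%, 37.7% and 37.7%. The nuclear respiratory factor 1 letters GCGCATGCG occurred in 5.56%, 2.18% and 1.66%, the YY1-type letters AAGATGGCG in 6.48%, 2.29% and 1.93%, and the cyclic AMP response element TGACGTCA in 4.28%, 2.45% and 1.91%. Part of these differences goes with CpG content. Among promoters with an observed over expected ratio of 0.8 or more, CCGGAAG occurred in 35.4% of divergent and 19.8% of other promoters, whereas GGGCGG occurred in 69.1% of divergent and 77.4% of other promoters, the opposite order. In the same class the gap was narrower for TATAAA (2.58% and 4.73%), GCGCATGCG (7.55% and 5.11%), AAGATGGCG (6.45% and 4.20%) and TGACGTCA (5.52% and 4.67%). CCAAT occurred in 37.9% and 33.8%. In 249 of the 536 pairs the starts lay up to 250 bp apart, so that the windows of the 2 genes overlap. A site in the overlap counts for both genes, and such a window spans both starts. Divergent windows are therefore not independent, and their shares are not strictly comparable with those of other promoters.

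Several lists of basic cell functions held a larger share of divergent regions than the autosomes as a whole, though most divergent regions were in none of these lists. Of 123 regions of DNA repair and replication genes, 27 were divergent (21.95%), against 6.40% of all 16329 autosomal regions. For mitochondrial ribosome, respiration and import genes the count was 41 of 175 (23.4%), for translation and RNA processing 54 of 297 (18.2%), for proteasome, ubiquitin and chaperone genes 20 of 152 (13.2%), and for histone genes 6 of 22 (27.3%). Only 2 of 167 regions of liver-enriched secreted proteins and metabolic enzymes were divergent (1.20%). These were Asl, the urea cycle enzyme argininosuccinate lyase, and Cyp39a1, an oxysterol hydroxylase of bile acid synthesis. Likewise 2 of 123 regions of developmental transcription factor genes were divergent (1.63%), Foxa3 and Foxm1. The lists were chosen with results of these data in view, and the counts are a description of positions. Of 50 pairs listed as known head-to-head pairs, 18 were kept, among them Brca1/Nbr1, Atm/Npat, Hspd1/Hspe1, Pms2/Aimp2, Col4a4/Col4a3 and Tap1/Psmb9.

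The distance between starts ran from 18 to 998 bp, with quartiles at 146, 264 and 450.5 bp, and 426 pairs (79.5%) lay within 500 bp. The pairs just inside the limit were Ankrd49/Mre11a at 998 bp and Mrpl41/Pnpla7 and Brca1/Nbr1, both at 995 bp. Just outside it were Dclre1a/Nhlrc2 at 1015 bp, Ushbp1/Babam1 at 1018 bp and Mir3592/Mir485 at 1023 bp. The mean signal was 74.6 and 129 in the minus and plus regions of Ankrd49/Mre11a and 58.8 and 406 in those of Dclre1a/Nhlrc2. In RefSeq GRCr8, 386 of the 397 pairs with both genes in the promoter table also had starts 0 to 1000 bp apart in opposite directions.

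Across the series a library held 933037 to 1796406 reads in all regions, of which 60274 to 108663 lay in divergent regions, and the median divergent region held 39 to 68 reads. 9 of the 70 libraries stood apart, with less than 1% of regions lacking a read, against a median of 3.50% over all 70. In these 9, strong regions read lower and weak regions higher: the Chtf18 region had a median of 227, against 352 in the other 61 libraries, and the Smc6 region 11.04, against 1.91. The 9 lay in 8 of the 14 groups, 2 of them in the DEN 30 mg/kg group at hepatectomy. Another set of 10 libraries, numbered 61 to 70, had divergent medians of 52.99 to 69.6, against 43.7 to 54.9 in the other 60. Acetaminophen replicate 5 at hepatectomy belongs to both sets. Each of these 10 was scaled by the same total as a library of another group among those numbered 1 to 20, and the part of this in their higher medians was not tested. Each initiated group held 1 of these 10 at each time, and the PB and water controls held none.

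Divergent regions carried slightly less methylation signal than other regions in nearly every library. The ratio of the divergent median to the median of other autosomal regions averaged 0.917 ± 0.0274 (SD, n = 70 libraries), from 0.857 to 1.00, and was below 1 in 68 libraries and equal to 1 in 2. Averaged over libraries, the median divergent region had a signal of 51.9, against 56.4 for other autosomal regions. The spread between regions was far wider than this gap: the quartiles were 20.98 and 106 for divergent regions and 21.8 and 115 for the others. A mean signal under 10 was found in 12.2% of divergent and 13.1% of other regions, and one over 200 in 8.23% and 9.04%. The ratio averaged 0.896 (methapyrilene, terminal) to 0.939 (DEN 3 mg/kg, terminal) over the 14 groups, with SDs within groups of 0.00577 to 0.0527, so that the groups overlapped. No test was run on this ratio, since it is a score over the members.

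**Figure D2:**
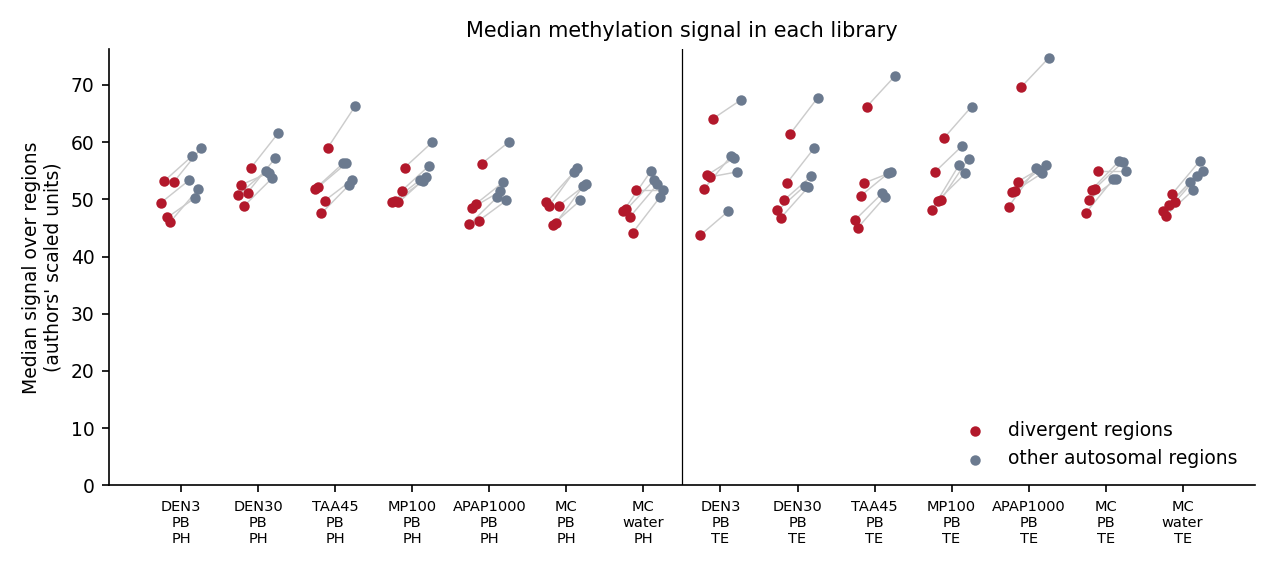
Median signal of the 1045 divergent regions (red, left) and of the 15284 other autosomal regions (grey, right) in each library, joined by a line, for the 7 conditions at hepatectomy (PH, on the left) and terminal euthanasia (TE, on the right). The divergent median lay below the other median in 68 of 70 libraries, with ratios from 0.857 to 1.00, and the highest point of each initiated terminal group exceeds the rest of its group.

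The gap differed between classes of promoter CpG content. Among promoters with an observed over expected ratio of 0.6 to 0.8 the median region signal was 50.2 for divergent and 58.5 for other regions, at 0.8 to 1 it was 46.99 and 52.5, and at 1 or more it was 42.9 and 52.1. In the CpG-richest class divergent regions were lower in 70 of 70 libraries. In the CpG-poor classes, which hold few members, the order was the opposite: 168 in 13 divergent regions and 74.7 in other regions at 0.2 to 0.4, and 57.3 in 10 divergent regions and 27.02 in others under 0.2. The medians by distance between the starts lay close together. The median signal was 53.8 with starts up to 100 bp apart, 47.9 over 100 and up to 250 bp, 52.3 up to 500 bp and 55.7 up to 1000 bp. Head-to-head pairs outside the rule had 59.2 over 1000 and up to 2000 bp, 52.03 up to 4500 bp and 65.4 where the genes overlapped by up to 1000 bp.

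**Figure D3:**
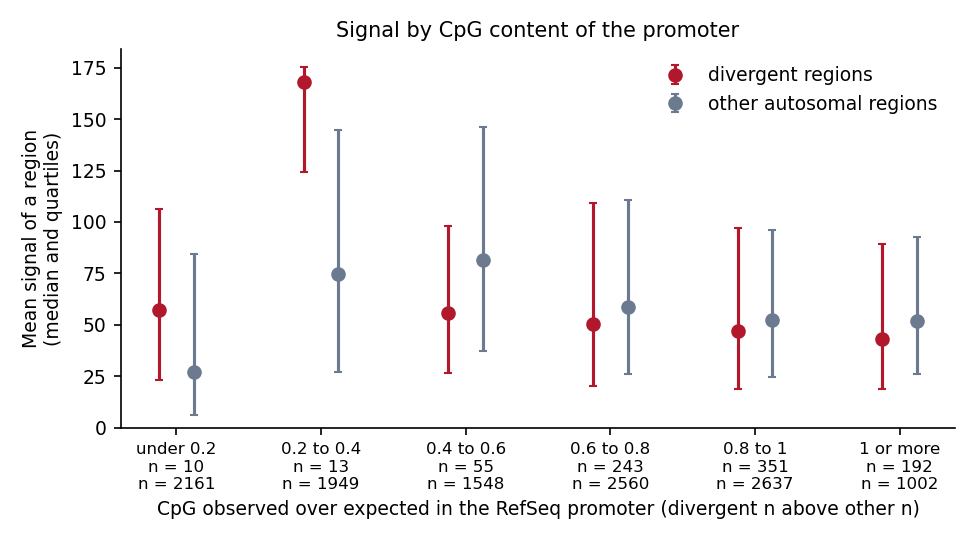
Mean signal of a region over 70 libraries by class of CpG observed over expected in its RefSeq promoter, as median (point) and quartiles (bar), for divergent regions (red, left) and other autosomal regions (grey, right). Divergent medians lie below the others from 0.4 upward (42.9 against 52.1 at 1 or more) and above them in the 2 CpG-poor classes, which hold 10 and 13 divergent regions.

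The pairs with the highest mean signal over both regions were not pairs of protein-coding genes. With 1 pair taken per locus, the 4 highest were microRNA pairs on chromosome 6, Mir3543/Mir136, Mir3595/Mir300, Mir3579/Mir758 and Mir3581/Mir410. Mir136, Mir300, Mir758 and Mir410 belong to the large imprinted microRNA cluster beside Meg3, where hairpins are cut from long transcripts. Their mature microRNAs, from RefSeq (GRCr8), are shown to identify them, with the seed (bases 2 to 8) in capitals.
rno-miR-3543: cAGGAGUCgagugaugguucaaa
rno-miR-136-3p: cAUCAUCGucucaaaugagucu
rno-miR-3595: gUGGAUUUuccucuacgau
rno-miR-300-3p: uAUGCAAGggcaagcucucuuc
rno-miR-3579: gCGCAUGUucuauggucaacca
rno-miR-758-3p: uUUGUGACcugguccacuaacc
rno-miR-409b: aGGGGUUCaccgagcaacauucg
rno-miR-410-3p: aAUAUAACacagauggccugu
The rno-miR-409b sequence comes from Mir3581, and no 2 of the 8 share a seed.

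The Mir136 region had a lowest, median and highest signal of 351, 791 and 1046 over the 70 libraries, and the Mir3543 region 208, 407 and 561. Mir136 exceeded Mir3543 in all 70 libraries. The Mir300 region had 150, 347 and 508, and the Mir3595 region 302, 679 and 974. In all, 36 divergent regions were microRNA regions, and 19 pairs joined 2 of them, 12 of these on chromosome 6. The median signal over regions in those 19 pairs was 239 (53.3 to 765). Without microRNA regions the median fell to 50.2 for the 1009 remaining divergent regions and to 55.7 for the others.

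Among protein-coding pairs, Wdr46/Pfdn6 and Chtf18/Rpusd1 had the highest mean over both regions. Pfdn6, a subunit of the chaperone prefoldin, had 185, 498 and 721 (lowest, median and highest of 70), and Wdr46, a nucleolar factor in ribosome assembly, had 135, 341 and 471. Both regions stayed far above the divergent median of 51.9 in every library. Chtf18, a subunit of a DNA clamp loader, averaged 339 ± 79.6 and Rpusd1, a pseudouridine synthase family member, 399 ± 87.2 (SD, n = 70). The Pfdn6 promoter shown above has the lowest GC content of the 6 windows, 44.7%.

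At the other end, 6 pairs had almost no signal. RGD1559600/Bucs1, whose plus gene encodes an acyl-CoA synthetase, averaged 1.47 and 1.61 and held 1 CpG in each promoter window. The other 5 held more CpGs: Gen1/Smc6 (30 and 42 CpGs), Erlec1/Asb3 (29 and 30), Cept1/Dram2 (25 and 25), Spata1/Gng5 (47 and 48) and RGD1359158/Fam108b1 (16 and 51). Gen1 encodes a Holliday junction resolvase and Smc6 a subunit of the Smc5/6 repair complex. The Gen1 region lacked any read in 32 of 70 libraries and the Smc6 region in 20, and their highest values were 22.9 and 34.3. The 9 libraries that stand apart read higher here: over the 12 regions of these 6 pairs, medians ran from 2.88 to 19.96 in the 9 libraries and from 0.01 (no read) to 3.56 in the other 61.

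Within a pair the 2 regions often differed several-fold although they share the stretch around both starts. The median pair differed 1.89-fold, on a scale of signal + 1, 254 of 536 pairs (47.4%) differed more than 2-fold and 115 (21.5%) more than 4-fold. The minus region was higher in 280 pairs and the plus region in 255, and in 1 pair the 2 were equal. In 237 pairs the direction was the same in all 70 libraries. Since a difference can come only from the outer pieces, its size gives a lower bound on the signal of one outer piece, and the lower region gives an upper bound on the shared piece. In 241 pairs (45.0%) the outer piece of one side held more signal per kb than the shared piece can hold, on mean signals, and in 39 pairs this was so in each of the 70 libraries. Without the 9 libraries that stand apart, the count was 253. Per library it was 97 to 299 pairs.

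**Figure D4:**
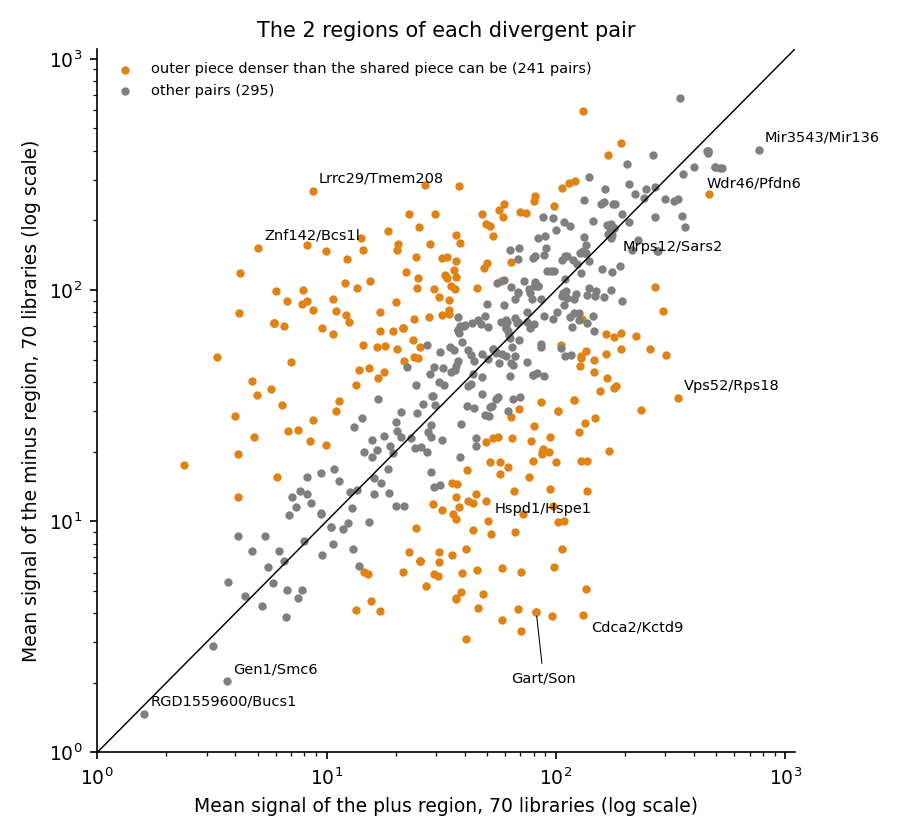
Mean signal over 70 libraries of the minus region against that of the plus region for the 536 divergent pairs, both on log axes, with the line of equality. In the 241 orange pairs one outer piece is denser per kb than the shared piece can be; Lrrc29/Tmem208 (268 and 8.70) and Cdca2/Kctd9 (3.94 and 132) lie far from the line on either side.

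The most one-sided pairs had signal on the side of a single gene. In Lrrc29/Tmem208 the Lrrc29 region had a lowest, median and highest signal of 115, 264 and 484, and the Tmem208 region 1.10, 7.60 and 37.8. The 2 did not overlap in any library, and the excess lies from about 1.1 kb downstream of the start of Tmem208, which encodes an endoplasmic reticulum membrane protein. It came to 78.9 units per kb, against at most 3.72 per kb in the shared piece. The minus region was likewise higher in all 70 libraries in Znf142/Bcs1l (153 ± 31.6 and 5.03 ± 4.65), Ewsr1/Rhbdd3 (118 ± 25.1 and 4.19 ± 5.29), Pmm2/Tmem186 (156 ± 38.7 and 8.23 ± 9.53) and Cyb5d1/Lsmd1 (147 ± 40.7 and 9.93 ± 10.8; means ± SD, n = 70). Bcs1l is an assembly factor of respiratory complex III, and Ewsr1 an RNA-binding protein.

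In the opposite direction, the Kctd9 region of Cdca2/Kctd9 had 68.8, 130 and 198 (lowest, median and highest), and the Cdca2 region 0.01, 2.17 and 58.4. The excess here lies on the side of Cdca2, a chromatin protein of dividing cells. Catsper2/Pdia3 (5.08 ± 4.61 and 136 ± 36.5), Arfip2/Fxc1 (7.56 ± 5.73 and 106 ± 27.4), Jmjd6/Mettl23 (9.97 ± 7.83 and 109 ± 20.8) and Vps52/Rps18 (34.1 ± 12.05 and 341 ± 84.5) were also higher in the plus region in all 70 libraries. Pdia3 is a disulfide isomerase of the endoplasmic reticulum and Rps18 a ribosomal protein.

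Pairs listed for their shared promoters had pair means from 12.6 (Brca1/Nbr1) to 249 (Tap1/Psmb9). In Gart/Son, a purine synthesis enzyme and a splicing cofactor, the Son region had 42.7, 81.5 and 136 (lowest, median and highest of 70), and the Gart region 0.01, 2.25 and 29.4. The Son region was higher in every library, and its excess, on the Gart side, came to 31.4 units per kb, against at most 1.29 per kb in the shared piece around the start printed above. In Hspd1/Hspe1, the mitochondrial chaperonin and its partner, the Hspe1 region had 4.85, 45.3 and 114 and the Hspd1 region 0.01, 8.55 and 32.3. Hspe1 was higher in 69 libraries. Among pairs with a DNA repair gene, Brca1/Nbr1 averaged 9.97 ± 6.54 and 15.2 ± 8.52, and Atm/Npat 12.2 ± 8.38 and 41.5 ± 12.8 (SD, n = 70). Others were higher, with 38.5 ± 13.3 and 183 ± 40.99 in Pms2/Aimp2 and 144 ± 28.1 and 128 ± 27.8 in Tsc2/Nthl1. Surf1/Surf2 averaged 38.7 ± 12.98 and 24.5 ± 11.7. Mrps12/Sars2, for a mitochondrial ribosomal protein and the mitochondrial seryl-tRNA synthetase, had 173 ± 34.05 and 176 ± 41.995, and the minus region was higher in 32 libraries and the plus region in 38. Tap1/Psmb9, the antigen transporter and an immunoproteasome subunit, was high on both sides at 289 ± 67.95 and 209 ± 46.1. Col4a4/Col4a3, collagen IV chains of basement membrane, lay near the divergent median at 60.8 ± 14.2 and 68.98 ± 14.6.

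In one pair the 2 regions could not be told apart. The Glod4 and RGD1309077 regions had identical values in each of the 70 libraries, with a lowest, median and highest of 0.01, 12.2 and 45.99. This pair, singled out after its values were seen, is the only one of the 536 with equal values throughout. Its outer pieces thus either held no read or held the same number in every library.

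None of the treatments changed a divergent region past the threshold. limma was fitted on log2(signal + 1) for all regions with a signal of at least 10 in at least 5 libraries, which left 998 of the 1045 divergent regions at hepatectomy and 1017 at terminal euthanasia, and p-values were adjusted by Benjamini-Hochberg over all tested regions at 0.05. In each of the 14 treatment contrasts 0 divergent regions passed in limma, the only tool run, beside 0 of 15809 tested regions (0%) at hepatectomy and 0 of 16008 (0%) at terminal euthanasia. The F test over the 7 groups called 0 divergent regions at either time, beside 1 of 15809 (0.00633%) and 0 of 16008 (0%). The lowest adjusted p of a divergent region in a treatment contrast was 0.437 (DEN 30 mg/kg against PB control, terminal). The median standard error of a log2 difference was 0.238 at hepatectomy and 0.254 at terminal euthanasia.

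Unadjusted p-values under 0.05 were about as common among divergent regions as among all regions. At hepatectomy they were found in 40 of 998 divergent regions with DEN 3 mg/kg (4.01%, against 3.17% of all tested), 84 with DEN 30 mg/kg (8.42% against 7.64%), 50 with thioacetamide (5.01% against 4.44%), 43 with methapyrilene (4.31% against 3.67%) and 43 with acetaminophen (4.31% against 3.68%), each set against the PB control. For PB against water there were 66 (6.61% against 6.28%), for DEN 30 against 3 mg/kg 67 (6.71% against 5.22%), and in the F test 40 (4.01% against 4.16%). At terminal euthanasia there were 78 of 1017 with DEN 3 mg/kg (7.67% against 8.51%), 26 with DEN 30 mg/kg (2.56% against 3.41%), 22 with thioacetamide (2.16% against 2.06%), 24 with methapyrilene (2.36% against 2.57%) and 35 with acetaminophen (3.44% against 2.76%). PB against water gave 27 (2.65% against 3.17%), DEN 30 against 3 mg/kg 21 (2.06% against 3.01%), and the F test 28 (2.75% against 2.55%). These counts depended on the libraries used. Without libraries 61 to 70, DEN 30 mg/kg against the PB control at hepatectomy had 156 of 980 divergent regions, beside 2311 of 15575 tested. DEN 30 against 3 mg/kg had 159, beside 2114. The other hepatectomy contrasts then had 38 (acetaminophen, beside 519 of 15575 tested) to 92 (PB against water, beside 1353). The DEN 30 mg/kg group at hepatectomy held 2 of the 9 libraries that stand apart. Without those 9 instead, DEN 30 mg/kg had 62 of 955 divergent regions against the PB control, beside 848 of 15300 tested. Against DEN 3 mg/kg it had 48, beside 703. Contrasts with the PB control share its 5 libraries at each time, and DEN 30 mg/kg enters 2 contrasts. The median log2 difference over divergent regions lay between -0.0327 (DEN 30 against 3 mg/kg, terminal) and 0.0902 (acetaminophen, terminal), beside -0.0261 and 0.110 over all regions in the same contrasts. Without libraries 61 to 70, these 2 contrasts had medians of -0.0334 and 0.0144 over divergent regions, beside -0.0289 and 0.0249 over all regions.

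Among members with a mean above the median signal, those with the smallest p in each contrast are given as values that did not pass. At hepatectomy the Mir3587 region, 265 bp from Mir29a, had 264, 231, 220, 202 and 248 with PB and 189, 189, 172, 127 and 125 with water. Every PB value exceeded every water value (log2 difference 0.56 ± 0.17 SE, limma adjusted p = 0.734). Its partner Mir29a, whose region shares the stretch around both starts, averaged 398 ± 51.5 with PB and 279 ± 64.1 with water (0.54 on the log2 scale). At terminal euthanasia, however, the Mir3587 difference was -0.18. The PB and water groups at hepatectomy lay apart in 7 of 998 divergent regions (0.701%) and 155 of 15809 tested regions (0.980%).

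The Cope region, of a coatomer subunit gene paired with the RNA helicase gene Ddx49, was among the members with the smallest p in 3 contrasts. With acetaminophen at terminal euthanasia it had 81.8, 39.4, 72.5, 73.9 and 74.7, against 100, 117, 86.2, 122 and 83.5 in the PB control. No acetaminophen value reached the lowest control value (log2 difference -0.59 ± 0.21, limma adjusted p = 0.999). At hepatectomy the acetaminophen difference was -0.53. The Ddx49 region showed a difference of 0.09 in the same terminal contrast. In that contrast the groups lay apart in 4 of 1017 divergent regions (0.393%) and 61 of 16008 tested regions (0.381%). Ptcd1, a mitochondrial RNA-binding protein, had hepatectomy log2 differences from the PB control of 0.65 ± 0.22 (SE) with DEN 3 mg/kg, 0.56 ± 0.22 with thioacetamide and 0.40 ± 0.22 with acetaminophen, whereas the terminal log2 differences were -0.26, -0.11 and -0.16. These 3 contrasts share their control libraries at each time.

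The Bhmt2/Dmgdh pair encodes enzymes of methionine and choline metabolism in liver. With DEN 3 mg/kg at terminal euthanasia Bhmt2 had 121, 139, 200, 202 and 216, against 128, 121, 129, 123 and 84.7 in the PB control. The groups overlapped only through the lowest DEN value (log2 difference 0.56 ± 0.20, limma adjusted p = 0.579), and Dmgdh differed by 0.53 in the same contrast. The lowest PB control value, 84.7, came from one of the 9 libraries that stand apart. Ilk, integrin-linked kinase, paired with Rrp8, had 206, 195, 209, 235 and 240 with DEN 3 mg/kg and 166, 174, 124, 161 and 111 in the PB control, without overlap (0.58 ± 0.20, limma adjusted p = 0.579). Reep6 averaged 194 ± 28.98 with DEN 30 mg/kg and 131 ± 25.6 in the PB control (SD, n = 5 each), also without overlap. With DEN 3 mg/kg the terminal groups lay apart in 13 of 1017 divergent regions (1.28%) and 187 of 16008 tested regions (1.17%). With DEN 30 mg/kg they did so in 5 divergent regions (0.492%) and 60 tested regions (0.375%). Recql4, a DNA helicase gene 892 bp from Lrrc14, averaged 70.9 ± 19.7 with DEN 30 mg/kg and 42.5 ± 16.9 in the PB control at hepatectomy, and the groups overlapped.

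Bop1/Hsf1 stood out through a single library. Bop1 is a ribosome assembly factor and Hsf1 the master transcription factor of the heat shock response, and their starts lie 181 bp apart. At terminal euthanasia Bop1 had 763, 40.2, 44.5, 31.1 and 46.6 with DEN 30 mg/kg, against 27.1, 25.9, 23.5, 27.9 and 48.9 with DEN 3 mg/kg. Hsf1 had 790, 69.5, 61.5, 65.2 and 68.8 with DEN 30 mg/kg, against 70.8, 75.3, 68.5, 80.9 and 68.4 with DEN 3 mg/kg. Replicate 1 was 19.8 times the 70-library median in Bop1 and 12.6 times in Hsf1, and the other 4 DEN 30 mg/kg libraries lay within the range of the remaining groups. The log2 differences were 1.27 ± 0.39 for Bop1 and 0.58 ± 0.31 for Hsf1 (limma adjusted p = 0.999 for both), and without replicate 1 they were 0.43 for Bop1 and -0.13 for Hsf1. Relative to the median of the other 4 libraries of its group, replicate 1 was higher by 721 in Bop1 and by 723 in Hsf1, so the difference between the 2 regions (-26.2) stayed near that of their 70-library medians (-24.3). The rise was thus nearly the same in both regions.

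Nearby regions in that library were raised less or not at all. Scx, 19.5 kb away, had 697, against 314 to 582 in the other 4 libraries of the group, and Dgat1, at 41.6 kb, had 33.9 against a median of 22.02. Recql4 and Lrrc14, at 239 and 237 kb, had 145 and 189, against medians of 54.5 and 96.8. A signal of at least 100 and over 5 times the region's own median was reached in some library by 7 divergent regions (0.670%) and 7 other autosomal regions (0.0458%). The 7 divergent regions stand at 4 loci, since Pfkfb2 accounts for 3 identical regions. In Pfkfb2/Yod1 (398 in DEN 30 mg/kg replicate 5, terminal), Fbxo8/Cep44 (159 in acetaminophen replicate 3, terminal) and Trak2/Stradb (121 in PB control replicate 1, terminal) only 1 of the 2 regions passed. Bop1/Hsf1 was the only pair with both. These limits were chosen after the Bop1/Hsf1 values were seen.

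**Figure D5:**
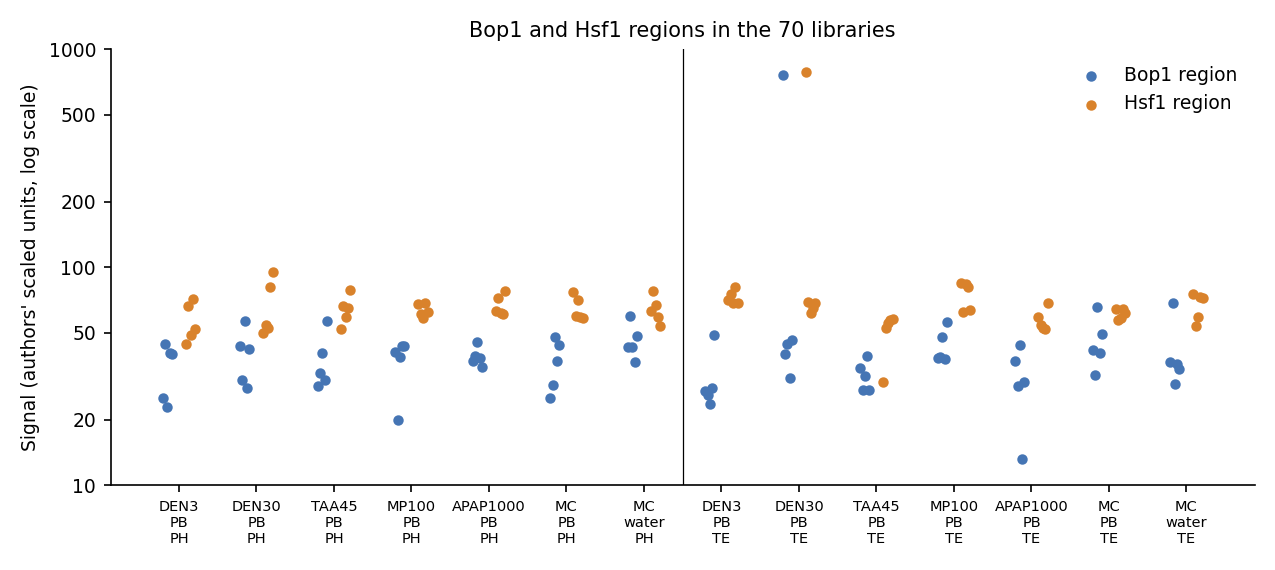
Signal of the Bop1 (blue) and Hsf1 (orange) regions in each of the 5 libraries of the 14 groups, on a log axis, at hepatectomy (PH, on the left) and terminal euthanasia (TE, on the right). In DEN 30 mg/kg replicate 1 at terminal euthanasia both regions lie at 763 and 790, while the other 69 libraries range from 13.3 to 68.5 for Bop1 and from 29.7 to 95.5 for Hsf1.

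Between the 2 times, divergent regions moved little. Of 1036 divergent regions tested over all 70 libraries, 0 passed in the comparison of terminal with hepatectomy livers averaged over the 7 conditions, beside 11 of 16385 tested regions (0.0671%). An unadjusted p under 0.05 was found in 60 divergent regions (5.79%), 54 of them higher at terminal euthanasia and 6 lower, against 6.59% of all tested regions, 985 higher and 94 lower. The median log2 difference was 0.0490 over divergent and 0.0453 over all regions, and without libraries 61 to 70 it was 0.0196 and 0.0198. The LOC691024/Dnai1 pair had the smallest p among members above the median signal. LOC691024 averaged 82.2 ± 18.99 at terminal euthanasia and 67.6 ± 17.7 at hepatectomy (SD, n = 35 each; log2 difference 0.29 ± 0.09, limma adjusted p = 0.251). Dnai1, an axonemal dynein chain of cilia, had 0.25 ± 0.08. The lower members with the smallest p were Mllt11 (-0.17 ± 0.07) and Ppme1 (-0.21 ± 0.10, log2 differences ± SE), a phosphatase methylesterase. RGD1563216, the partner of the lysosomal cholesterol transporter gene Npc2, passed only without the 9 libraries that stand apart (0.52 ± 0.12, limma adjusted p = 0.0321), against 0.43 ± 0.12 and adjusted p = 0.184 with them.

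In the comparison of the times 0 members of any list passed, and an unadjusted p under 0.05 was found in 1 of 27 tested divergent regions of DNA repair and replication genes, 2 of 40 mitochondrial, 0 of 20 proteasome and chaperone, 2 of 53 translation and RNA processing and 0 of 6 histone regions. The median log2 differences of these lists ran from 0.0297 to 0.0652. Pms1, a mismatch repair protein, averaged 20.5 ± 7.72 at terminal euthanasia and 16.5 ± 6.95 at hepatectomy (log2 difference 0.30 ± 0.15, limma adjusted p = 0.716). Mrpl30, of the mitochondrial ribosome, had 0.48 ± 0.17, Mrpl41 0.26 ± 0.10, the splicing factor Prpf31 0.36 ± 0.13, and Asl -0.26 ± 0.11 (adjusted p from 0.448 to 0.627). In the treatment contrasts no list member passed either. The highest number at an unadjusted p under 0.05 was 6 of 52 regions (11.5%), for translation and RNA processing genes with acetaminophen at terminal euthanasia. In that contrast it was 3.44% of tested divergent regions and 2.76% of all tested regions. The 6 were picked as the highest number over all lists and treatment contrasts, and this list is the largest. They can therefore not be set against those shares. Over the terminal treatment contrasts the same list ran from 1 (thioacetamide) to 6 of 52. Smaller lists reached higher shares at hepatectomy. For DEN 30 mg/kg against the PB control it was 3 of 25 DNA repair and replication regions, beside 8.42% of divergent and 7.64% of all tested regions. For histone regions it was 1 of 5, both for DEN 3 mg/kg against the PB control and for DEN 30 against 3 mg/kg. These too were picked as the highest shares, and each rests on few regions.

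The authors' deposited table of peaks compares DEN 30 mg/kg with PB at times it calls 5w and 11w, read here as hepatectomy and terminal euthanasia, although the second region table is marked 10W. Whether libraries were pooled for it is not stated, and it has no replicates. Peaks were placed by their midpoint. In the authors' deposited table, a peak higher with DEN at 5w lay in 45 divergent regions (4.31%) and 830 other autosomal regions (5.43%), and one lower with DEN in 5 (0.478%) and 57 (0.373%). At 11w the counts from the authors' deposited table were 2 (0.191%) and 90 (0.589%) for peaks higher with DEN, and 13 (1.24%) and 142 (0.929%) for lower ones. A peak in a shared piece counts in both regions of its pair, so the shares of divergent and other regions are not strictly comparable. The 13 divergent regions lower at 11w rest on 9 peaks, and the 5 lower at 5w on 3. Those higher with DEN rest on 42 peaks at 5w and 2 at 11w. Divergent loci held 56 peaks of the authors' deposited table at 52 loci, 42 of them higher at 5w. 10 peaks (17.9%) had their midpoint in a shared piece, which makes up 29.8% of the span of the pairs, and 46 lay in an outer piece. Among peaks at divergent loci that were higher with DEN, the highest read counts in the authors' deposited table were those of Wdr3/Gdap2 (40 reads with DEN and 6 with PB, on the Gdap2 side), Akap17a/Asmtl (33 and 4), Bet1l/Ric8a (31 and 5) and Fto/Rpgrip1l (29 and 4), all at 5w, and of Acd/Pard6a at 11w (30 and 5). The 5w peak of Glod4/RGD1309077 in the authors' deposited table lay in the shared piece and was lower with DEN, with 34 reads in the set where it was higher and 7 in the other. As given above, no divergent region passed the limma test of DEN 30 mg/kg against the PB control at either time.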

How the data were processed

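Methylated DNA from 70 rat liver samples was captured with the MethylMiner kit, cut to inserts of about 250 bp and sequenced on SOLiD 4, per the labels' protocols. The authors deposited one signal value per region and library: all values (100%, within 0.01 of a read) were whole multiples of one step per library, 50 M divided by a whole number, and 0.01 stood for no read. The sources used here name neither what that number counts nor the aligner or genome build. The authors also deposited read counts per peak, a table of comparisons without samples, per the file headers.

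Transcript starts were set at 4500 bp from the upstream edge of each region. limma 3.58.1 (R 4.3.3) was fitted on log2(signal + 1), with a variance trend, for regions with 10 or more in at least 5 libraries, and p-values were adjusted by Benjamini-Hochberg over all tested regions at 0.05. The fit, checked on simulated data, held 1 mean per group. Replicates are separate libraries of a group, and where they are not separate animals p-values measure only the spread between libraries. Tables and figures used Python 3.11.15. Named were, per contrast, the 2 members per direction with the smallest p among those above the median signal, the 6 highest and 6 lowest pairs, the 5 most one-sided pairs each way, and listed pairs. The Bop1/Hsf1 search, the Glod4 pair, the peaks and RGD1563216 were named after their values were seen. Members and lists were chosen with earlier results of these data known. Promoters came from RefSeq (GRCr8), matched by transcript or symbol. Alternatives changed the pseudocount, filter, scaling, blocks and libraries. Intervals on single regions were not computed, since a median of 39 to 68 reads per divergent region limits precision by counting alone.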

Additional observations from a re-analysis of the deposited data

Results flagged for a closer look

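In 13 of 133 groups of 5 libraries examined, 1 value stood far from the other 4 of its group (gap over range above 0.71). Chance flags about 1 in 20 such groups where they are independent and chosen beforehand. Most groups here belong to regions named for their small p, and some share DNA. The count can therefore not be set against that rate, and no cause was tested. The largest gaps were those of Bop1 and Hsf1 with DEN 30 mg/kg at terminal euthanasia, where replicate 1 had 763.4 and 789.6, against 31.1 to 46.6 and 61.5 to 69.5 in the other 4. Bop1 also had 48.87 in DEN 3 mg/kg replicate 5 at terminal euthanasia, above 23.5 to 27.9 in the others.

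The ratio of the divergent to the other median was 1.0 in water control replicate 5 at hepatectomy, above 0.873 to 0.904, and that library is one of the 9 that stand apart. It was 0.8772 in acetaminophen replicate 1 at terminal euthanasia, below 0.929 to 0.949. The median divergent signal was 69.58 in acetaminophen replicate 5 at terminal euthanasia, one of libraries 61 to 70, above 48.7 to 53.1.

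At hepatectomy, Crcp had 90.85 in water control replicate 3 (others 62.8 to 69.4), Qrsl1 had 130.0 in DEN 3 mg/kg replicate 5 (61.9 to 71.8), and Mllt11 had 136.5 in DEN 3 mg/kg replicate 4 (90.99 to 99.4). At terminal euthanasia, Rpgrip1l had 73.44 in thioacetamide replicate 3 (104 to 115), Cope had 39.41 in acetaminophen replicate 2 (72.5 to 81.8), Mllt11 had 82.28 in PB control replicate 1 (50.7 to 54.7), and Bhmt2 had 84.68 in PB control replicate 5 (121 to 129), one of the 9 libraries that stand apart.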

How the results depend on the processing

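Counts of divergent regions past the threshold stayed at 0 in all 280 comparisons with 1 library left out and in 135 of 136 comparisons under other settings. Comparisons of the same time and setting share a fit, so these are not independent checks. The exception was the comparison of the times without the 9 libraries with under 1% of regions lacking a read, which called 1 divergent region (RGD1563216) and 23 regions in all, against 11 with every library. For the same comparison quantile normalization called 25 regions in all and scaling to equal library sums, chosen after seeing the data, 17, with 0 divergent in both. Of the named regions, 480 values under other settings kept their direction and side of the threshold, and 839 of 840 values with 1 library left out did so. The Hsf1 difference of DEN 30 from 3 mg/kg at terminal euthanasia ran from -0.13 (without DEN 30 mg/kg replicate 1) to 0.78 (without replicate 3). The ratio of divergent to other medians stayed between 0.916 and 0.918 with 1 library left out. It was 0.973 by means over regions and, in alternatives chosen after seeing the data, 0.885 by medians without microRNA regions (0.912 by means) and 0.849 among promoters with a CpG ratio of 0.6 or more.

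With the replicate block, the comparison of the times called 14 regions in all and 0 divergent, with 66 divergent at an unadjusted p under 0.05, against 60 without the block. The labels do not say that a number marks one animal. In 11 of 35 pairs of the same number the deviations correlated above 0.1 (r from -0.381 to 0.675). Of the 35 hepatectomy libraries, 21 correlated best with their own number among the 5 terminal libraries of their condition. This is a hint from the data and not from the design. The block called 0 divergent regions in any comparison. edgeR and DESeq2 were not run, since the deposited values are scaled and hold a placeholder for no read. Depth limits the weakest regions, where 1 read is a large part of the value.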
